A study of Mus musculus with 3 samples.

Results

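The Myc family and its Max partners were read as 9 genes, Myc, Mycn, Mycl, Max, Mga, Mxi1, Mxd3, Mxd4 and Mnt. They were taken by gene symbol from the 32285 genes of the deposited count matrices, and each symbol matched 1 gene identifier. The data were single-cell RNA sequencing of E14tg2a mouse embryonic stem cells, a line derived from the inner cell mass. All groups shared the Fgf4 -/- genotype, a loss of the gene for the growth factor FGF4. Cells were seeded in ES medium with LIF and then kept for 24 h in N2B27, a defined serum-free medium, with heparin and the GSK3 inhibitor Chiron. Recombinant FGF4 was present at 0, 5 or 50 ng/ml, with 1 library per dose. The comparisons asked how far each gene stood at 50 and at 5 ng/ml from its level without ligand, and whether the higher dose differed from the lower.

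The network works through paired proteins. MAX is the shared partner: it pairs with a MYC protein (from Myc, Mycn or Mycl) to activate genes for growth, ribosome production and metabolism, and it pairs with a member of the MXD group, MNT or MGA to repress genes at the same short DNA element, the E-box. In mouse embryonic stem cells Myc and Mycn overlap in function, their joint loss leads to a dormant state, and MGA brings MAX to a Polycomb complex that keeps germline genes silent.

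The 3 libraries held 2222 cells, with 373, 874 and 975 cells and 42726514, 75184072 and 81409975 unique molecular identifiers (UMIs, 1 per captured transcript) at 0, 5 and 50 ng/ml. No barcode was shared between libraries. Median UMIs per cell were 107873, 91764 and 87334, so cells with ligand were read less deeply. With 1 library per dose there was no replicate check, no test between doses was possible, and cells of a library are not replicates. Brackets hold 95% intervals for counting error alone, and statements of direction refer to the libraries sequenced. Detachment used trypsin or Accutase, and which library had which was not stated. Transcripts of Fgf4 itself stood at 51.7, 24.9 and 20.4 CPM (counts per 1000000 UMIs) at 0, 5 and 50 ng/ml, and such 3' tags do not test the deletion. Of 10 embryonic stem cell markers, 9 reached 5 CPM in each library, and the list summed to 4963, 4861 and 4665 CPM. The 12 feeder fibroblast markers summed to 7.23, 7.17 and 7.43 CPM, with Col3a1, Postn and Fap at 0 in each library. The 9 primitive endoderm markers summed to 13.9, 8.99 and 11.1 CPM, of which the basement membrane gene Col4a1 gave 9.57, 5.32 and 5.05 CPM.

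Myc alone among the members stood more than 2-fold apart between libraries with and without FGF4, whereas Mycn stayed the main Myc-type transcript at every dose and Mycl was lower with ligand. A gene was considered in a comparison when it reached 5 CPM in the higher of the 2 libraries, and a difference of at least 2-fold was counted. At 50 against 0 ng/ml, 1 of the 9 members was at least 2-fold higher, beside 2.64% of the 9439 genes considered, and 0 were at least 2-fold lower, beside 3.46%, or 6.1% in either direction. At 5 against 0 ng/ml, 1 of 9 was at least 2-fold higher, beside 2.11% of 9460 genes, and 0 were at least 2-fold lower, beside 2.14%, or 4.25% in either direction. At 50 against 5 ng/ml none of the 9 was 2-fold apart in either direction, beside 0.185% of 9192 genes higher, 0.109% lower and 0.294% either way. Mxd4 did not reach 5 CPM in any library, and Mycl did not reach it in the comparison of 50 with 5 ng/ml. The median log2 ratio over all 9 members was 0.08, 0.09 and -0.03 in the 3 comparisons, against -0.01, 0.02 and -0.02 over the genes considered. The comparisons share libraries, so their values are not independent of each other.

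**Figure D1:**
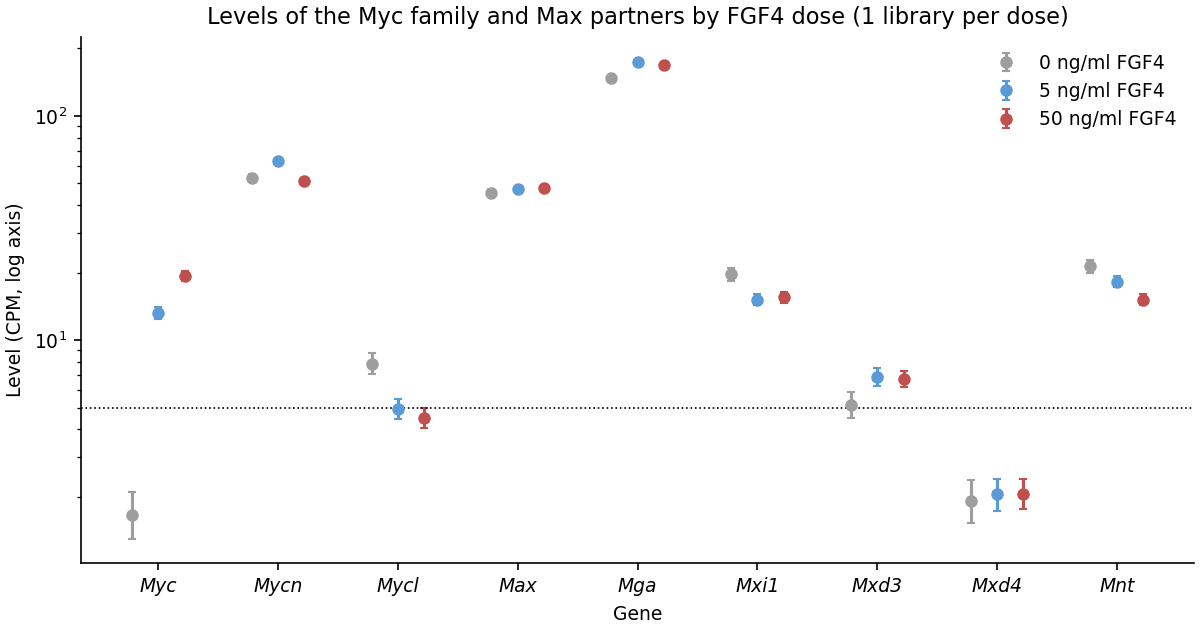
Level of each member in CPM on a log axis at 0, 5 and 50 ng/ml FGF4, 1 point per library, with bars for the 95% Poisson counting interval and a dotted line at 5 CPM. Myc stands at 1.66, 13.2 and 19.3 CPM, whereas Max stands at 45.3, 47.3 and 47.8 CPM.

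Myc encodes the founding MYC transcription factor (ENSMUSG00000022346, mm10 15:61985391-61990374, plus strand). It had 71, 991 and 1569 UMIs at 0, 5 and 50 ng/ml, which made 1.66 CPM (1.30 to 2.10), 13.2 CPM (12.4 to 14.0) and 19.3 CPM (18.3 to 20.3). The level without ligand lay far below both others, and the intervals of the 2 FGF4 doses did not meet. Myc was 11.6-fold higher (9.14 to 14.9) at 50 than at 0 ng/ml and 7.93-fold higher (6.23 to 10.2) at 5 than at 0 ng/ml. Between the FGF4 doses it was 1.46-fold higher (1.35 to 1.58) at 50 than at 5 ng/ml. Of the genes considered, 99.8%, 99.8% and 99.5% had a lower ratio than Myc at 50 over 0, 5 over 0 and 50 over 5 ng/ml. When each cell was first reduced to the same depth, as described for the counts per cell, the ratio was 7.88 at 50 over 0 and 5.85 at 5 over 0 ng/ml. These 2 ratios come from 1 random draw with 34 Myc UMIs at 0 ng/ml, so they are less certain than those from all UMIs.

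Pvt1, a long noncoding RNA gene that starts 47612 bases beyond the end of Myc on the same strand (15:62037986-62378096), also differed with ligand. It stood at 9.10 CPM (8.22 to 10.1), 15.9 CPM (15.0 to 16.8) and 17.1 CPM (16.2 to 18.0) at 0, 5 and 50 ng/ml. Relative to 0 ng/ml, Pvt1 was 1.87-fold higher (1.67 to 2.10) with 50 and 1.74-fold higher (1.55 to 1.96) with 5 ng/ml, both smaller ratios than those of Myc. Without ligand Pvt1 exceeded Myc, whereas at 50 ng/ml the order was the other way round. These are 3' tag counts, in which a transcript gives 1 UMI whatever its length, so CPM were set side by side across genes with no correction for length.

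Mycn, which encodes the MYC protein prominent in the early embryo (ENSMUSG00000037169, 12:12936093-12941914, minus strand), was the most abundant of the 3 Myc genes in each library. The 250 bases before its RefSeq start (GRCm38.p6, chr12:12941837-12942086, minus strand) are shown because the gene carried most Myc-type transcripts, with capitals marking TTTGGCGC, a form of the site bound by E2F cell-cycle factors.
Mycn: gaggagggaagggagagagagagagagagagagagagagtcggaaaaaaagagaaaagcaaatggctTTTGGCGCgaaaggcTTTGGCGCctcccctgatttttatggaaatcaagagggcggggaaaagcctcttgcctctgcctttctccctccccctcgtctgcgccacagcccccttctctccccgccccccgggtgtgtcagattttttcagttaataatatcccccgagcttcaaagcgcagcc
The 2 matches begin 183 and 168 bases before the start and do not overlap. The motif was searched on both strands after the window had been seen, and 0.417% of 32851 RefSeq promoter windows of the same length held it. A match is a description of the letters and not evidence of binding.

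Mycn had 2260, 4733 and 4154 UMIs, or 52.9 CPM (50.7 to 55.1), 63.0 CPM (61.2 to 64.8) and 51.0 CPM (49.5 to 52.6) at 0, 5 and 50 ng/ml. The highest value was at the middle dose, and the intervals at 0 and 50 ng/ml overlapped. Mycn was 1.19-fold higher (1.13 to 1.25) at 5 than at 0 ng/ml. With the mean share per cell as the scaling it was 1.11-fold higher, and the median of all genes shifted by -0.06 on the log2 scale. Mycn was 1.23-fold lower (1.18 to 1.29) at 50 than at 5 ng/ml. Its ratio at 50 over 0 ng/ml was 0.965 (0.916 to 1.02). Few genes lay further down between the FGF4 doses: 3.70% of those considered had a lower ratio at 50 over 5 ng/ml. Against 0 ng/ml its place was more ordinary, with 44.1% of genes lower at 50 over 0 and 81.9% lower at 5 over 0 ng/ml.

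Mycl, the remaining paralogue (ENSMUSG00000028654, 4:122995652-123002485, plus strand), had 335, 372 and 366 UMIs at 0, 5 and 50 ng/ml. These made 7.84 CPM (7.02 to 8.73), 4.95 CPM (4.46 to 5.48) and 4.50 CPM (4.05 to 4.98). The level without ligand was above both others, and the levels at 5 and 50 ng/ml did not differ beyond counting error. Relative to 0 ng/ml, Mycl was 1.74-fold lower (1.50 to 2.03) with 50 ng/ml and 1.58-fold lower (1.36 to 1.84) with 5 ng/ml. In these 2 comparisons 5.28% and 4.79% of the genes considered had a lower ratio.

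The make-up of the Myc-type transcripts therefore differed between libraries. Of all Myc, Mycn and Mycl UMIs, Myc made up 2.66% (2.09 to 3.35) at 0 ng/ml, 16.3% (15.3 to 17.2) at 5 ng/ml and 25.8% (24.7 to 26.9) at 50 ng/ml. Mycl made up 12.6% (11.3 to 13.9), 6.10% (5.51 to 6.73) and 6.01% (5.43 to 6.64). Mycn made up 84.8% (83.4 to 86.1), 77.6% (76.6 to 78.7) and 68.2% (67.0 to 69.4). For each Myc UMI there were 31.8 Mycn UMIs (25.1 to 40.9) at 0 ng/ml, 4.78 (4.46 to 5.12) at 5 ng/ml and 2.65 (2.50 to 2.81) at 50 ng/ml. The 3 genes together stood at 62.4 CPM (60.1 to 64.8), 81.1 CPM (79.1 to 83.1) and 74.8 CPM (72.9 to 76.7), so their sum was 1.20-fold higher (1.15 to 1.26) at 50 and 1.30-fold higher (1.24 to 1.36) at 5 than at 0 ng/ml.

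**Figure D2:**
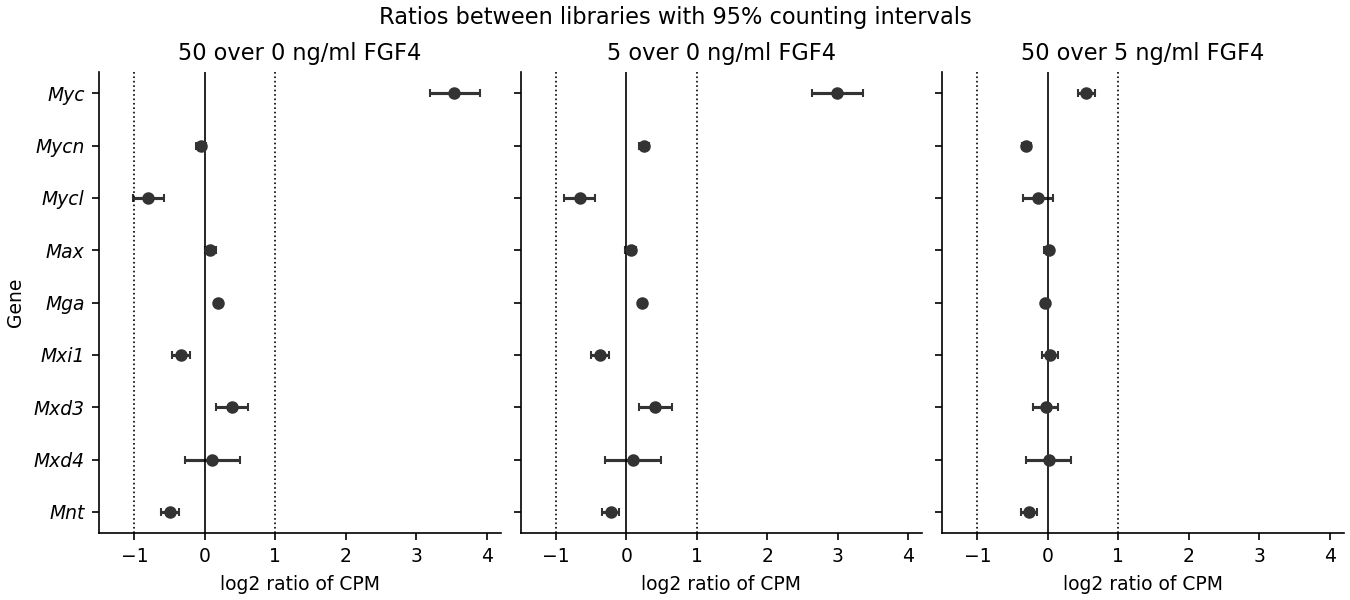
Log2 ratio of CPM for each member at 50 over 0, 5 over 0 and 50 over 5 ng/ml FGF4, with bars for the 95% counting interval, a solid line at 0 and dotted lines at 2-fold. Myc alone passes 2-fold, at 11.6 for 50 over 0 and 7.93 for 5 over 0 ng/ml.

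Max, the shared partner (ENSMUSG00000059436, 12:76937269-76962201, minus strand), varied little between libraries. It had 1937, 3557 and 3888 UMIs, or 45.3 CPM (43.3 to 47.4), 47.3 CPM (45.8 to 48.9) and 47.8 CPM (46.3 to 49.3) at 0, 5 and 50 ng/ml. All 3 intervals overlapped. The ratio was 1.05 (0.997 to 1.11) at 50 over 0 ng/ml and 1.04 (0.987 to 1.10) at 5 over 0 ng/ml. With the mean share per cell as the scaling both were below 1, and the medians of all genes then shifted by -0.08 and -0.06 on the log2 scale.

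Mga, which encodes the large dual-specificity repressor of the Polycomb complex PRC1.6 (ENSMUSG00000033943, 2:119897228-119969581, plus strand), was the most abundant member. It had 6313, 13020 and 13731 UMIs, or 148 CPM (144 to 151), 173 CPM (170.2 to 176) and 169 CPM (166 to 172) at 0, 5 and 50 ng/ml. Both libraries with ligand lay above the library without it. Mga was 1.14-fold higher (1.11 to 1.18) at 50 and 1.17-fold higher (1.14 to 1.21) at 5 than at 0 ng/ml. Many genes moved further up, since 75.0% and 80.1% of those considered had a lower ratio. With the mean share per cell as the scaling, the Mga ratio at 50 over 0 ng/ml was 1.055, below its counting interval. The median of all genes then shifted by -0.08 on the log2 scale. At 50 against 5 ng/ml the ratio was 0.974 (0.951 to 0.998), a difference no larger than the 0.04 on the log2 scale by which median-of-ratios factors raised the median of all genes.

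Mnt encodes a widely expressed repressor that competes with MYC proteins for MAX (ENSMUSG00000000282, 11:74830920-74845725, plus strand), and Mxd4 encodes a repressor linked to differentiating and resting cells (ENSMUSG00000037235, 5:34173883-34187720, minus strand). RefSeq windows were found for 8 of the 9 members, all but Myc, and the windows of these 2 genes are shown because they alone held the E-box CACGTG within the 250 bases before the start, marked by capitals.
Mnt: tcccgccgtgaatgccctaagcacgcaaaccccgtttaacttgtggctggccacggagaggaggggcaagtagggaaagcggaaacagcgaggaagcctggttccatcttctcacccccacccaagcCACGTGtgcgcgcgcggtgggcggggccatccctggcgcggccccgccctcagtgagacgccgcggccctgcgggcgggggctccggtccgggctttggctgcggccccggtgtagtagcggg
Mxd4: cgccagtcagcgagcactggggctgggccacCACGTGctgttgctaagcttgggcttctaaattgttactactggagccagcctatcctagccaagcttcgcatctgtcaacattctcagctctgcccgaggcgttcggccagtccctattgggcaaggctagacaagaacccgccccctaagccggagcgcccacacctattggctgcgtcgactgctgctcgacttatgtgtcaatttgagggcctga
The first lies at chr11:74830674-74830923, plus strand, and its E-box begins 123 bases before the start. The second lies at chr5:34187711-34187960, minus strand, and its E-box begins 219 bases before the start. Both are from GRCm38.p6. Of 32851 windows of this length, 6.02% held the E-box, which reads the same on both strands.

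The 2 genes differed in their values. Mnt had 910, 1371 and 1233 UMIs, or 21.3 CPM (19.9 to 22.7), 18.2 CPM (17.3 to 19.2) and 15.1 CPM (14.3 to 16.0) at 0, 5 and 50 ng/ml. Its level was lower at each dose step, and the 3 intervals did not overlap. Mnt was 1.41-fold lower (1.29 to 1.53) at 50 than at 0 ng/ml, 1.17-fold lower (1.07 to 1.27) at 5 than at 0 ng/ml, and 1.20-fold lower (1.11 to 1.30) when 50 was set against 5 ng/ml. In these comparisons 11.4%, 19.8% and 5.15% of the genes considered had a lower ratio. Mxd4 was near the bottom of the range, with 82, 154 and 168 UMIs, or 1.92 CPM (1.53 to 2.38), 2.05 CPM (1.74 to 2.40) and 2.06 CPM (1.76 to 2.40). Its ratio of 1.08 (0.821 to 1.42) at 50 over 0 ng/ml leaves room for a difference in either direction at this depth.

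Mxi1 and Mxd3, the other MXD genes, lay on opposite sides. Mxi1, which encodes a MAX-binding repressor that recruits SIN3 corepressors (ENSMUSG00000025025, 19:53310518-53375810, plus strand), had 840, 1139 and 1263 UMIs, or 19.7 CPM (18.4 to 21.0), 15.1 CPM (14.3 to 16.1) and 15.5 CPM (14.7 to 16.4) at 0, 5 and 50 ng/ml. It was 1.27-fold lower (1.16 to 1.38) at 50 and 1.30-fold lower (1.19 to 1.42) at 5 than at 0 ng/ml, and the FGF4 doses did not differ beyond counting error. A lower ratio was seen for 17.6% of genes considered at 50 over 0 and 11.5% at 5 over 0 ng/ml. Mxd3, whose product is known from proliferating cells (ENSMUSG00000021485, 13:55325168-55329823, minus strand), had 220, 515 and 546 UMIs, or 5.15 CPM (4.49 to 5.88), 6.85 CPM (6.27 to 7.47) and 6.71 CPM (6.16 to 7.29). It was 1.30-fold higher (1.11 to 1.53) at 50 and 1.33-fold higher (1.13 to 1.56) at 5 than at 0 ng/ml, above 88.8% and 91.5% of the genes considered. Mxd3 overlaps Prelid1 on the opposite strand, which had 7850, 14761 and 15949 UMIs, and the sources at hand do not say if strand was used in counting, so the Mxd3 values are uncertain.

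In the order of levels without ligand, Mga came first, then Mycn, Max, Mnt, Mxi1, Mycl, Mxd3, Mxd4 and Myc. The neighbours Mnt and Mxi1 overlapped in their counting intervals, as did Mxd4 and Myc. At 50 ng/ml Myc came next after Max, above Mxi1 and Mnt, whose intervals overlapped, and Mycl had moved below Mxd3. The repressor genes Mxi1, Mxd3, Mxd4, Mnt and Mga together held more UMIs than the Myc genes at each dose. For each UMI of these 5 there were 0.319 UMIs of Myc, Mycn and Mycl (0.305 to 0.333) at 0 ng/ml, 0.376 (0.365 to 0.388) at 5 ng/ml and 0.359 (0.349 to 0.370) at 50 ng/ml. Transcript ratios say nothing of protein amounts.

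The counts per cell were compared at equal depth. Each cell was thinned to 40000 UMIs by drawing without replacement, and 13, 168 and 182 shallower cells were left out at 0, 5 and 50 ng/ml, which kept 360, 706 and 793 cells. Myc was found in 8.33% of cells (5.69 to 11.7) at 0 ng/ml, 36.1% (32.6 to 39.8) at 5 ng/ml and 46.3% (42.8 to 49.8) at 50 ng/ml. In all cells without thinning the shares were 16.1%, 48.7% and 60.1%. Random counting with the same mean would give 9.01%, 42.4% and 52.5% of cells. Cells with a Myc UMI held 1.13, 1.53 and 1.61 of them on average after thinning. The most seen in 1 cell was 2, 5 and 5. The thinned values at 0 ng/ml rest on 34 Myc UMIs from 1 random draw, so they are less certain than those with ligand. No cell type that should lack Myc was present, so the part of these shares that free RNA could give was not measured.

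**Figure D3:**
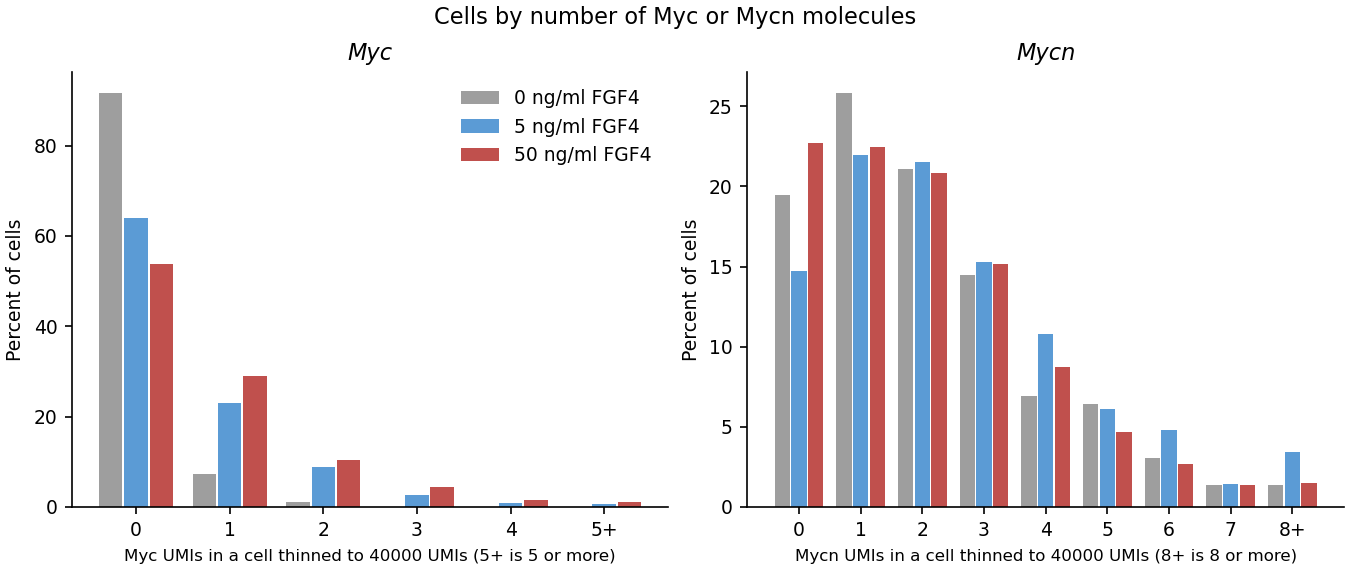
Percent of cells with each number of Myc UMIs (left) or Mycn UMIs (right) at 0, 5 and 50 ng/ml FGF4, after each cell was thinned to 40000 UMIs. Cells without a Myc UMI make up 91.7%, 63.9% and 53.7%, and cells without a Mycn UMI 19.4%, 14.7% and 22.7%.

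Mycn was found in 80.6% of thinned cells (76.1 to 84.5) at 0 ng/ml, 85.3% (82.4 to 87.8) at 5 ng/ml and 77.3% (74.2 to 80.2) at 50 ng/ml, with a median of 2 UMIs per cell at each dose. Its unthinned shares were 92.0%, 83.0% and 80.8%, an order that differs from that of the CPM, and cells without ligand were deeper. Very shallow cells were also more common with ligand: 369 of 373, 794 of 874 and 896 of 975 cells reached 7000 UMIs at 0, 5 and 50 ng/ml. All unthinned shares include them, and even Mga was found in 97.9%, 90.2% and 90.1% of unthinned cells. Mycl was found in 28.6% (24.0 to 33.6), 16.6% (13.9 to 19.5) and 16.6% (14.1 to 19.4) of thinned cells. Cells with both a Myc and a Mycn UMI made up 6.39% (4.09 to 9.43) at 0 ng/ml, 32.3% (28.9 to 35.9) at 5 ng/ml and 34.9% (31.6 to 38.4) at 50 ng/ml. Cells with Myc and no Mycn UMI made up 1.94% (0.785 to 3.97), 3.82% (2.54 to 5.52) and 11.3% (9.23 to 13.8). Both shares depend on how often each gene was found. No share expected without a link between the genes was computed, so they do not show a separate group of cells.

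Variation among cells was read as the Fano factor, the variance over the mean, which is 1 for random counting. In the draw used here Mycn had 1.65, 1.94 and 1.71 at 0, 5 and 50 ng/ml, more than 94.4%, 95.4% and 93.2% of genes with a mean within 1.25-fold of its own. A second draw gave 1.73, 1.72 and 1.69, so no order of the doses can be read from them. Myc had 1.14, 1.45 and 1.43, more than 67.7%, 95.2% and 93.3% of such genes, and 1.07, 1.34 and 1.36 in the second draw. Mga had 1.67, 2.05 and 2.09, above 84.4%, 88.5% and 90.7%. Max had 1.07, 1.06 and 1.14, above 20.1%, 12.8% and 45.3% of genes of like mean. It thus lay low among them at 0 and 5 ng/ml and near the middle at 50 ng/ml. Across cells the 36 pairs of members had Pearson correlations of log2(UMIs + 1) between -0.11 and 0.09 over the 3 libraries, values too weak in such sparse counts to count as a finding.

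Cells at either end of 4 gene-list scores were compared within each library. Thinned cells were ranked by the summed UMIs of a list that holds none of the members and split into 3 groups, of which the top and bottom held 120, 235 and 264 cells each at 0, 5 and 50 ng/ml. Such a group is a range of a score and not a cell type. Between 2 and 48 cells had exactly the score at a limit of a group, most often for the ERK list, whose scores were low. Top and bottom groups differed in original depth, as for the G2/M score at 131347 against 93174 median UMIs per cell at 0 ng/ml, and slightly in median mitochondrial share, as for the S phase score at 5.04% against 5.63% at 0 ng/ml. The part of these in the results was not tested. Between libraries at 50 over 0 ng/ml, 8 of the 11 ERK genes were at least 2-fold higher, beside 2.64% of all genes. Of the 12 naive genes, 5 were at least 2-fold lower, beside 3.46%. For S phase 0 of 24 and for G2/M 0 of 30 genes were 2-fold apart, beside 6.1% of all genes in either direction. Smaller differences were present: 18 of the 24 S phase and 8 of the 30 G2/M genes had a ratio above 1, beside 49.1% of all genes.

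By the S phase score, Myc and Mycl were higher in top-scoring cells with ligand, whereas Mycn stood within counting error of 1 at each dose. Myc stood at 18.3 CPM in the top and 9.89 CPM in the bottom group at 5 ng/ml, a ratio of 1.85 (1.43 to 2.41), and at 22.1 and 12.9 CPM at 50 ng/ml, a ratio of 1.71 (1.38 to 2.13). At 0 ng/ml the ratio was 1.78 (0.740 to 4.56), on 16 and 9 UMIs. Mycl had ratios of 2.33 (1.47 to 3.81) at 5 ng/ml and 2.17 (1.44 to 3.34) at 50 ng/ml, against 0.867 (0.550 to 1.36) at 0 ng/ml, a difference between doses that was not tested. Mycn had 1.01 (0.841 to 1.21), 1.05 (0.941 to 1.18) and 1.02 (0.904 to 1.15) at 0, 5 and 50 ng/ml. Max had 0.955 (0.786 to 1.16), 1.15 (1.004 to 1.32) and 1.10 (0.973 to 1.25), so only its interval at 5 ng/ml lay above 1. Mxd3, whose relation to S phase is known from other cells, had ratios of 1.20 (0.873 to 1.65) at 5 ng/ml and 1.21 (0.864 to 1.69) at 50 ng/ml, within counting error of 1. Over genes that reached 5 CPM in either group, 15.9%, 24.6% and 22.9% had an interval above 1 by this score at 0, 5 and 50 ng/ml.

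By the G2/M score Mycn was higher in top-scoring cells at each dose, Mga with ligand and Mxi1 without it. Mycn had ratios of 1.32 (1.09 to 1.59), 1.20 (1.07 to 1.35) and 1.22 (1.08 to 1.38) at 0, 5 and 50 ng/ml. Mga had 1.05 (0.941 to 1.16), 1.33 (1.24 to 1.43) and 1.26 (1.18 to 1.35). Mxi1 had 1.46 (1.09 to 1.97), 1.06 (0.840 to 1.35) and 0.897 (0.714 to 1.13). Intervals above 1 were seen for 13.5%, 20.7% and 23.1% of genes that reached 5 CPM in either group. At 50 ng/ml Mycl was 1.55-fold lower (1.02 to 2.40) in the top group, beside 10.4% of such genes with an interval below 1. Mxd4 was 2.13-fold lower (1.14 to 4.12) there, on 16 and 34 UMIs. Its 1.52 and 3.22 CPM lay below 5 CPM in both groups, so that share does not cover Mxd4.

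By the score of ERK feedback genes and targets (Sprouty, Spred and Dusp genes with Etv1, Etv4 and Etv5), Myc stood at 19.7 CPM in the top and 9.68 CPM in the bottom group at 5 ng/ml, a ratio of 2.03 (1.57 to 2.64). At 50 ng/ml it stood at 20.8 and 17.0 CPM, a ratio of 1.22 (0.999 to 1.50). Mycl lay on the other side, at 1.85-fold lower (1.20 to 2.90) in the top group at 5 ng/ml and 1.88-fold lower (1.22 to 2.94) in that at 50 ng/ml, where the ratio was 0.909 with cells thinned to 7000 UMIs. Mycn was higher in the top group at each dose, with ratios of 1.54 (1.28 to 1.86), 1.20 (1.07 to 1.35) and 1.15 (1.02 to 1.29). Mga was also higher there with ligand, at 1.19 (1.11 to 1.28) for 5 and 1.16 (1.08 to 1.24) for 50 ng/ml. By this score 9.44%, 14.8% and 19.0% of genes that reached 5 CPM in either group had an interval above 1, and 6.15%, 6.52% and 8.38% had one below it.

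By the score of naive pluripotency genes, Myc was lower in top-scoring cells with ligand and Mycn was higher. Myc stood at 11.1 CPM in the top and 16.0 CPM in the bottom group at 5 ng/ml, or 1.44-fold lower (1.12 to 1.87). At 50 ng/ml it stood at 13.2 and 22.7 CPM, or 1.73-fold lower (1.40 to 2.14), though with cells thinned to 7000 UMIs the ratio was 0.938. Mycn had ratios of 1.30 (1.09 to 1.56), 1.14 (1.02 to 1.28) and 1.38 (1.22 to 1.56) at 0, 5 and 50 ng/ml. Over the 9 members, 4 had an interval above 1 at 50 ng/ml (Mycn, Max, Mga and Mnt), beside 18.1% of genes that reached 5 CPM in either group, and 1 below it, Myc, beside 11.3%.

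**Figure D4:**
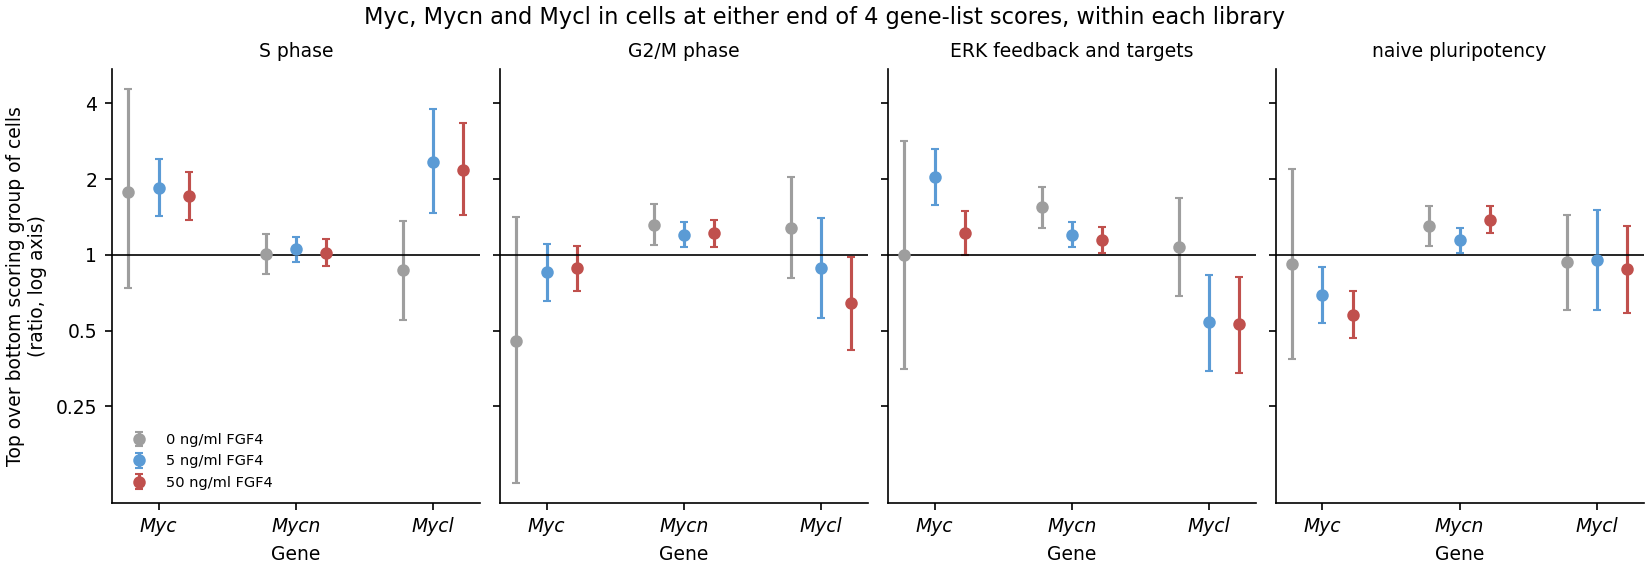
Ratio of CPM in the top over the bottom group of cells by 4 gene-list scores, on a log axis, for Myc, Mycn and Mycl within the libraries at 0, 5 and 50 ng/ml FGF4, with bars for the 95% counting interval. Myc lies at 1.85 and 1.71 by S phase score with ligand and at 0.693 and 0.579 by naive score, whereas Mycn lies at 1.01 to 1.05 by S phase score.

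Genes that act with the members or under them were read from lists. MYC-activated growth genes, for ribosome assembly, nucleotide and polyamine synthesis and the cell cycle, had a median log2 ratio of 0.18 at 50 over 0 ng/ml over all 70 members, against -0.01 over the genes considered. In that list 60 of 70 had a ratio above 1, beside 49.1% of all genes considered. Of the 70, 1 was at least 2-fold higher, beside 2.64% of all genes considered, so the list did not exceed that share. With the mean share per cell as the scaling, 47 had a ratio above 1 and the list median was 0.06, and the median of all genes was then -0.09. The 1 gene was Ccnd2, which encodes cyclin D2, at 51.2 CPM at 50 ng/ml against 7.89 CPM at 0 ng/ml, or 6.49-fold higher (5.81 to 7.27). The lactate dehydrogenase gene Ldha was 1.80-fold higher (1.78 to 1.82), and the ribosome assembly gene Wdr74 1.59-fold higher (1.53 to 1.65). The polyamine enzyme gene Odc1 stood at 551 CPM at 50 ng/ml against 344 CPM at 0 ng/ml. The 10 genes with a ratio below 1 included the nucleotide synthesis gene Cad, at 102 CPM at 50 ng/ml against 120.3 CPM at 0 ng/ml.

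Of 16 MYC-repressed genes, 10 reached 5 CPM at 50 or 0 ng/ml, of which 3 were at least 2-fold lower, beside 3.46% of all genes considered, and 1 at least 2-fold higher, beside 2.64%. The stress gene Gadd45b was 4.74 CPM at 50 ng/ml against 19.4 CPM at 0 ng/ml, or 4.10-fold lower (3.63 to 4.63). The cyclin-dependent kinase inhibitor gene Cdkn1b was 2.33-fold lower (2.12 to 2.55) and the tetraspanin gene Cd9 2.17-fold lower (2.11 to 2.24). Gadd45a, a relative of Gadd45b, was 3.41-fold higher (3.16 to 3.68), at 63.8 CPM at 50 ng/ml against 18.7 CPM at 0 ng/ml, so members of the list lay on both sides.

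Cofactors, protein stability regulators and PRC1.6 partners were within 2-fold of their level without ligand. Of 15 cofactors and repressor partners, 13 stability regulators and 13 partners of MGA in PRC1.6, 0 were 2-fold apart at 50 over 0 ng/ml, beside 6.1% of all genes considered. At that share lists this short may hold no such gene, so the 0 does not set them apart. Ratios above 1 were seen for 6 of the cofactors, 4 of the stability regulators and 8 of the PRC1.6 partners, beside 49.1% of all genes considered, and these counts shifted with scaling. The chromatin adaptor gene Wdr5, which is in the first and the third of these lists, was 1.56-fold lower (1.51 to 1.62), the helicase gene Ruvbl1 1.39-fold higher (1.35 to 1.43) and Tfdp1, for a PRC1.6 and E2F partner, 1.47-fold higher (1.41 to 1.53). Gsk3b, for a kinase that marks MYC for destruction and is one of the targets of Chiron, was 1.38-fold lower (1.32 to 1.45). Among the network genes outside the 9, Mlx stood at 30.9 CPM at 50 ng/ml against 35.2 CPM at 0 ng/ml and Bmyc at 31.4 against 27.7 CPM. Mlxip stood at 6.44 CPM at 50 ng/ml against 5.24 CPM at 0 ng/ml, a ratio of 1.23 (1.05 to 1.44), whereas Mxd1 and Mlxipl stayed below 5 CPM and Mycs had no UMI. Of 16 germline genes bound by PRC1.6, 9 reached 5 CPM and 2 were at least 2-fold higher at 50 over 0 ng/ml, beside 2.64% of all genes considered. These were the meiotic cohesin gene Stag3 at 2.21-fold (1.89 to 2.59) and the piRNA pathway gene Mael at 2.15-fold (1.81 to 2.57), while the germ cell RNA-binding gene Dazl was 1.89-fold lower (1.70 to 2.11).

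**Figure D5:**
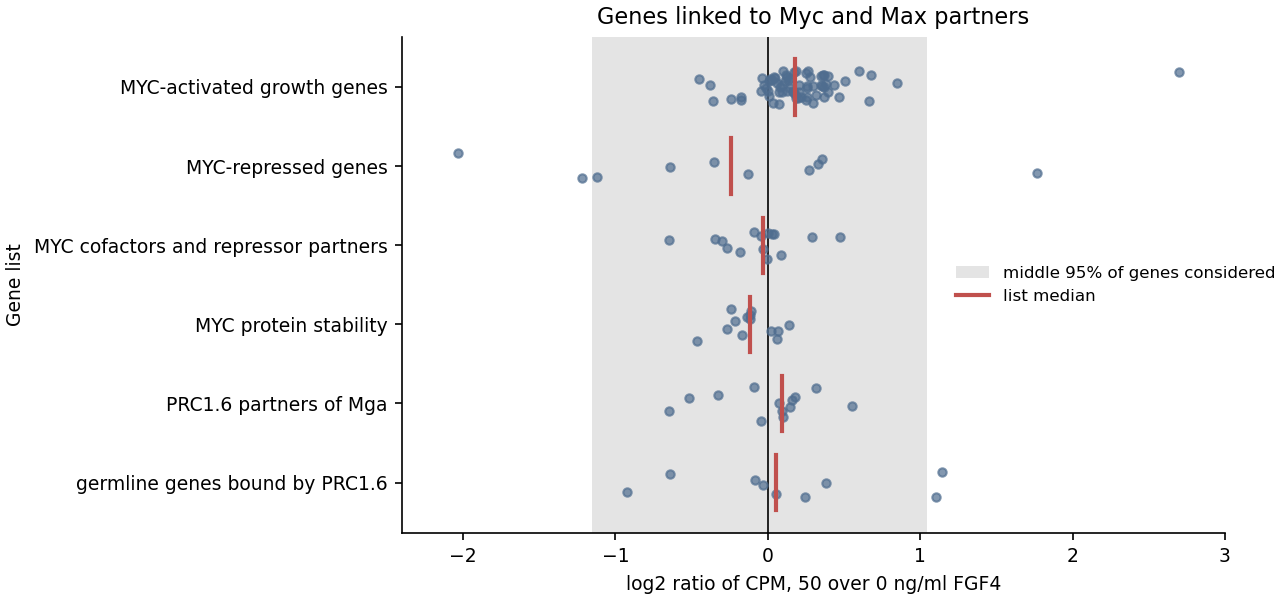
Log2 ratio of CPM at 50 over 0 ng/ml FGF4 for genes of 6 lists that reached 5 CPM in either library, 1 point per gene, with a red line at the list median and a grey band for the middle 95% of all genes considered, from -1.15 to 1.04. The MYC-activated growth genes centre on 0.18 with Ccnd2 far to the right, and the MYC-repressed genes spread to both sides.

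The genes nearest in dose pattern were found by the distance between log2 ratios at 5 over 0 and 50 over 0 ng/ml, among 9184 other genes that reached 5 CPM in a library and with 3 libraries in all. Nearest to Myc were the phosphodiesterase gene Pde2a at a distance of 0.08, the transcription factor gene Ebf1 at 0.09, the ERK phosphatase gene Dusp6 at 0.12, the ectoenzyme gene Enpp3 at 0.14 and the tetherin gene Bst2 at 0.16. Pde2a stood at 1.71, 12.9 and 19.5 CPM and Dusp6 at 1.69, 12.5 and 18.6 CPM at 0, 5 and 50 ng/ml, next to 1.66, 13.2 and 19.3 CPM for Myc. Nearest to Mycn were Etfdh, Maml1, Ccdc141, Lrfn4 and Tmem243, all within 0.04, and nearest to Mycl were Tacc2, Fnbp1, Pqlc3, Itpr3 and Bach2, all within 0.02. The distances leave out counting error. At 50 over 0 ng/ml the 5 genes nearest to Myc had ratios of 10.4 to 11.4, inside the Myc interval of 9.14 to 14.9. The neighbours of Mycn and Mycl likewise lay inside the intervals of these genes, so the order of the named genes is not resolved.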

How the data were processed

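The deposited matrices held UMI counts per gene and cell, made by the authors with Cell Ranger 4.0.0 per the file headers and aligned to mm10, as the submitters' processing notes state. How cell barcodes were chosen and which annotation was used is not given in the sources used here. Per the labels' protocols, the kit was a 10x Genomics 3' kit. UMIs were summed over the cells of a library and divided by the library total (CPM). Ratios had conditional binomial, levels exact Poisson and shares exact binomial (Clopper-Pearson) intervals at 95%. Coordinates came from GENCODE M21 (mm10), promoters from RefSeq. A sum of 0 UMIs was set to 3 for log2 ratios. The main results keep all cells. Scrublet in scanpy 1.11.5 called 12, 7 and 26 doublets, and a filter on mitochondrial share over 10% or depth beyond 3-fold of the median kept 359, 706 and 798 cells; both were alternatives, with TMM in edgeR 4.0.16. Interval coverage was tested on simulated data. Thinning was checked on the cells without ligand, for genes with many expected UMIs and so not for sparse ones such as Myc. Named genes were the 9 members, up to 4 genes per list with the ratio farthest from 1 at 50 over 0 ng/ml and the 5 genes nearest to Myc, Mycn and Mycl, without predicted genes; other genes named, markers apart, were chosen after their values could be seen. The members and all 14 other lists were chosen with earlier results of these data known. The thinning drew with a fixed seed.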

Additional observations from a re-analysis of the deposited data

How the results depend on the processing

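No paired analysis was possible because each dose had 1 library. With 4 other scalings, 3 other cell choices and thinned cells, the counts past 2-fold stayed within 1.5 times their values, and Myc was 7.88-fold to 11.9-fold higher at 50 over 0 and 5.85-fold to 8.11-fold higher at 5 over 0 ng/ml. Both low ends came from thinned cells, with 34 Myc UMIs at 0 ng/ml. With a minimum of 20 CPM, 0 members were at least 2-fold higher at 50 over 0 and 0 at 5 over 0 ng/ml, because Myc stayed under that minimum. With a 1.5-fold limit, 1 member was lower in each of these comparisons and 5 MYC-activated genes were higher. The share of all genes at that limit is not given here, so these counts have no background beside them. MYC-repressed genes at least 2-fold lower numbered 5 with no minimum level and 1 with a 3-fold limit. Shares of all genes at these settings and at 20 CPM are not given either, so these counts cannot be set against those above. Directions of Max and Mxd4 at 50 over 0, of Max at 5 over 0 and of Mycl, Max, Mxi1, Mxd3 and Mxd4 at 50 over 5 ng/ml turned under at least 1 alternative, those of Max only with the mean share per cell, which shifted the median of all genes by up to -0.08 on the log2 scale. At 50 over 5 ng/ml Mga reached 1.00 with median-of-ratios factors, which shifted that median by 0.04. Of 27 Fano factors, 5 moved with a second thinning draw, 12 at 60000 UMIs and 10 at 7000 UMIs; that of Mxd4 at 0 ng/ml was 1.42 in place of 1.02 with the second draw. Of 108 ratios between score groups, 108 stayed within their counting intervals without filtered cells and 106 with 4 groups per score. With cells thinned to 7000 UMIs 60 stayed within and 45 did not, among them the naive-score ratio of Myc at 50 ng/ml, which was 0.938; the cause was not tested. Depth limits Mxd4, Mxd3, Mycl and Myc without ligand, and no replicate shows how far libraries of 1 dose differ.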
